A study of Mus musculus with 10 samples.

Results

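The genes described here encode solute carriers that move inorganic ions, metals and organic ions across membranes, together with 3 adaptor genes named after such carriers. They were taken from the array by name: every probe set whose annotation gave 1 gene with a symbol starting with Slc4a, Slc8a, Slc9a, Slc12a, Slc20a, Slc22a, Slc30a, Slc39a, Slc41a or Slco. The rule gave 121 of 22626 probe sets and 74 of the 12393 named genes. The rule used no measured value.

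RNA came from whole testes of mice aged 10 days, in 5 control pools and 5 SCARKO pools, with 1 array per pool. Control mice carried the AMHCre transgene, whose promoter is active in Sertoli cells, and SCARKO mice lacked androgen action selectively in Sertoli cells. Each pool combined 1 testis from each of 3 littermates, and the protocol paired control with SCARKO pools to allow for differences between litters. The numbers 1 to 5 in the titles were taken to mark these pairs. The mouse strain, and any other allele in which SCARKO mice differed from controls, were not stated in the labels. Errors here therefore describe how pools of littermates varied, not single mice.

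Titles and descriptions gave opposite genotypes for the 8 arrays of pairs 1 to 4 and the same genotype for the 2 arrays of pair 5. The titles were used, so every direction below rests on them. Grouped by the descriptions, 0 probe sets passed in limma, and 611 had an unadjusted p under 0.05 where the titles gave 2833. The median signal per array lay between 36.4 and 37.6. All 15 Sertoli cell markers and all 10 germ cell markers on the array passed the signal filter, while none of the 5 erythroid, 4 epididymal and 2 fat markers did. All arrays correlated with each other between 0.973 and 0.991 on the log2 scale.

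Ion carriers set the volume, acidity and salt content of cells. In the adult testis, Sertoli cells secrete the fluid of the seminiferous tubule and control which ions and metals reach the germ cells behind them. Slc12 carriers couple chloride to sodium or potassium, Slc4 and Slc9 carriers handle bicarbonate and protons, and Slc8 carriers exchange sodium for calcium. Most Slc30 proteins (ZnT) move zinc out of the cytosol and Slc39 proteins (ZIP) move it in. Slc41 proteins carry magnesium, Slc20 proteins carry phosphate, and Slc22 and Slco proteins carry organic ions, among them carnitine, drugs and steroid conjugates.

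Of the 74 genes, 35 had at least 1 probe set above a mean log2 signal of 4.27 (a signal of 19.3) and were tested, and 39 lay below it. Among the 35, limma called 1 lower in SCARKO, the magnesium carrier Slc41a2, and 1 higher, the potassium-chloride cotransporter Slc12a7. That is 5.71% of the tested transporter genes. Among all 7973 genes tested, 5.69% were called (3.52% lower and 2.17% higher), so the transporters were called at the background rate. A gene was represented by its brightest probe set and called at an adjusted p under 0.05. The median log2 fold change was -0.04 for the 35 genes, with 23 below 0 and 12 above, and 0.02 for all genes. Counted by probe set, 2 of 52 fell and 1 rose. Of all 13576 probe sets 5.19% were called, 3.26% lower and 1.93% higher. At an unadjusted p under 0.05 there were 8 of the 35 transporter genes, against 21.7% of all genes tested. The second fall by probe set belonged to another magnesium carrier, Slc41a3.

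**Figure D1:**
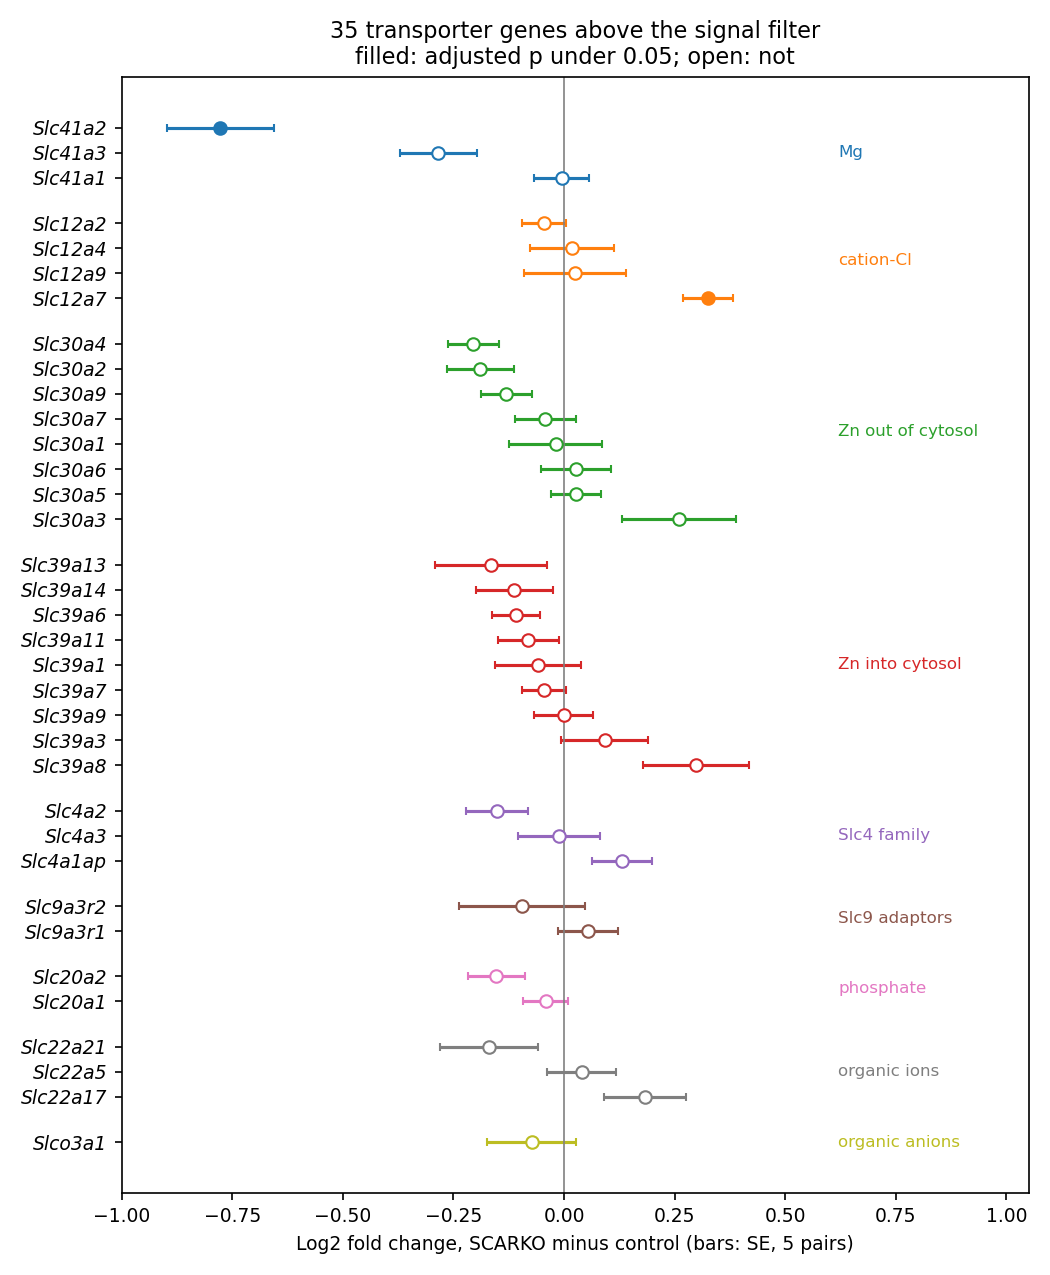
Log2 fold change (SCARKO minus control, x axis, in log2 units) of the 35 tested transporter genes, listed by family on the y axis. Points are limma estimates over 5 pairs, bars are 1 SE, and filled points passed an adjusted p under 0.05. Slc41a2 at -0.78 and Slc12a7 at 0.32 are the filled points, and the other 33 are open.

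Among the tested transporters, the largest change was that of a magnesium carrier. Slc41a2 encodes a magnesium carrier of the cell surface (gene ID 338365, chromosome 10). Its signal in control pools 1 to 5 was 34.5, 29.2, 54.5, 41.6 and 34.0, and in SCARKO pools 1 to 5 it was 23.0, 21.2, 26.7, 19.9 and 20.3. Every SCARKO pool lay below every control pool, and the gap was widest in pairs 3 and 4. Its mean was 38.8 ± 9.85 in controls and 22.2 ± 2.77 in SCARKO (SD, n = 5). The signal fell by 0.78 on the log2 scale (SE 0.12, limma adjusted p = 0.0044), or 1.71-fold. It was lower in 5 of 5 pairs. The signal was dim: SCARKO pools lay close to the filter at 19.3, and with 16 added before log2 the change was -0.50 (adjusted p = 0.0049). With all dim probe sets kept the call was lost (adjusted p = 0.082), and with the lowest 60% left out the gene was not tested.

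Slc41a3, whose product has been placed in mitochondria, was measured by 2 probe sets above the filter (gene ID 71699, chromosome 6). On the dimmer of these, control pools 1 to 5 read 93.2, 54.1, 75.3, 78.6 and 80.8, and SCARKO pools 1 to 5 read 66.9, 47.0, 58.9, 64.0 and 61.8. The SCARKO pool was lower in each of the 5 pairs, although the groups overlapped because control pool 2 was the lowest control. Limma called this probe set at -0.34 on the log2 scale (SE 0.07, adjusted p = 0.021). The call was lost without the pairs as a block (adjusted p = 0.22) and without pair 1, 3, 4 or 5 (0.0505 to 0.082).

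The brighter Slc41a3 probe set read 101.0, 72.2, 93.1, 97.7 and 99.8 in control pools 1 to 5 and 73.9, 72.3, 84.4, 66.6 and 82.4 in SCARKO pools 1 to 5. It was lower in 4 of 5 pairs, and pair 2 showed almost no difference. Its difference of -0.28 (log2, SE 0.09, adjusted p = 0.089) did not pass with all pairs and passed without pair 2 (-0.36, adjusted p = 0.042). When the kept probe sets of each gene were averaged, Slc41a3 passed at -0.31 (adjusted p = 0.021). The array maker's suffix on the dimmer probe set marks a design that can match transcripts of more than 1 gene, so it may not read Slc41a3 alone. A further Slc41a3 probe set lay below the filter, averaging 16.3 in controls and 15.5 in SCARKO. With dim probe sets kept, its log2 fold change was -0.08 (limma adjusted p = 0.78).

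Slc41a1, a sodium-dependent magnesium exporter of the cell surface, had nearly the same level in both groups. Control pools 1 to 5 read 144.2, 114.7, 130.4, 141.6 and 152.4, and SCARKO pools 1 to 5 read 133.4, 130.1, 131.1, 136.8 and 146.6. The log2 fold change was -0.01 (SE 0.06, adjusted p = 0.97), and the groups overlapped throughout. The difference between the 3 magnesium carriers was not tested.

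**Figure D2:**
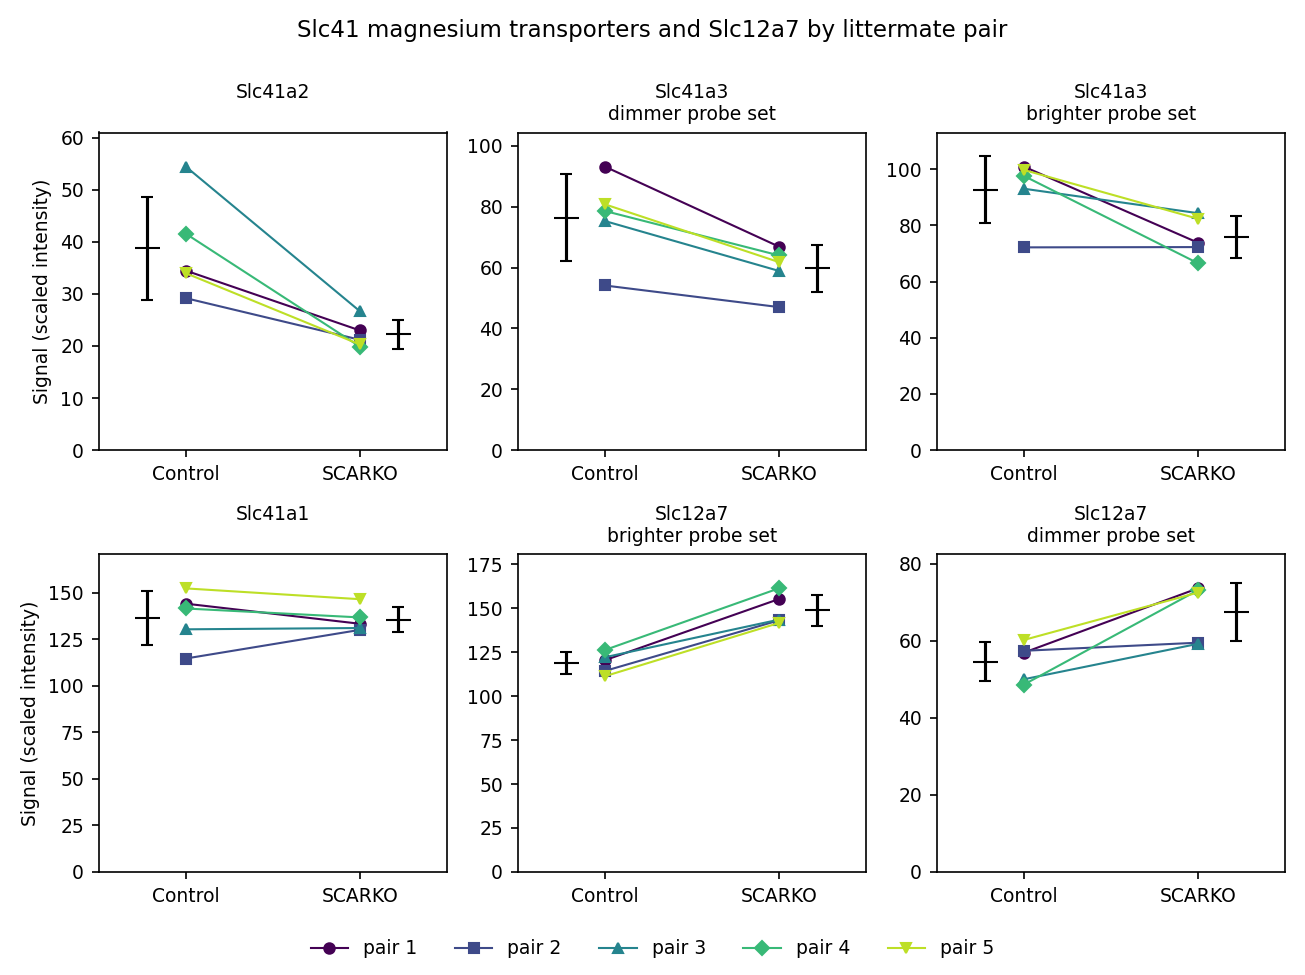
Signal (scaled intensity, y axis from 0) in control and SCARKO pools for the Slc41 probe sets above the filter and for both Slc12a7 probe sets. Lines join the pools of a littermate pair, and black bars give the mean ± SD (n = 5). For Slc41a2 the SCARKO pools sit between 19.9 and 26.7, under all controls, and on the brighter Slc12a7 probe set they sit between 141.6 and 161.3, above all controls.

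Promoters of the 3 Slc41 genes are shown because 2 of them read lower in SCARKO and 1 did not. The sequences are the 250 bases before the gene start in RefSeq on build GRCm38.p6, 5′ to 3′ on the gene's strand. Capitals mark matches to the metal response element, TGCACNC or TGCGCNC on either strand, the motif of the zinc-sensing factor Mtf1. The positions are chr10:83337818-83338067 (minus strand) for Slc41a2, chr6:90618996-90619245 (plus) for Slc41a3 and chr1:131827762-131828011 (plus) for Slc41a1.
Slc41a2: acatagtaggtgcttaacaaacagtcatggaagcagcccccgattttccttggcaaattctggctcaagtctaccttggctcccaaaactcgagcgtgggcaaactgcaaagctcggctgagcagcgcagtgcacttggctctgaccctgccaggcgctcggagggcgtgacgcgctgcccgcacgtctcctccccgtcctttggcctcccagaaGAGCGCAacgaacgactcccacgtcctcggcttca
Slc41a3: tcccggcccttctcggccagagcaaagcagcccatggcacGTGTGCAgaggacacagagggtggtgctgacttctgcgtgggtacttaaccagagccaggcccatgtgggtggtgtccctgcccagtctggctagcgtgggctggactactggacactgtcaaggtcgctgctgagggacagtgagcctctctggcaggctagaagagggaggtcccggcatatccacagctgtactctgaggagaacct
Slc41a1: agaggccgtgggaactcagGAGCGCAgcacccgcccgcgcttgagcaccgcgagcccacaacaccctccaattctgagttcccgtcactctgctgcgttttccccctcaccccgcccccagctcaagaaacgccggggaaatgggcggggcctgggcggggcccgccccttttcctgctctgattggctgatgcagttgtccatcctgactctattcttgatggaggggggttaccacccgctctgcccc

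Each of the 3 held 1 match, starting 35 bases before the start in Slc41a2, 210 in Slc41a3 and 231 in Slc41a1. Motifs were searched on both strands from 250 bases before to 50 bases after the start. The full androgen response element, an inverted repeat of AGAACA with 3 bases between the copies, was in 0 of the 78 promoters that matched 64 of the transporter genes, and in 3 of all 32851 promoters. The single hexamer AGAACA, which lies inside the full element, was in 11.1% of the promoters of tested transporter genes and 12.1% of those of all tested genes, and in no promoter of an Slc41 gene or of Slc12a7. The metal response element was in 20 of 36 promoters of the tested transporter genes (55.6%) and in 36.8% of the promoters of all tested genes. These matches describe letters in a window and were not tested.

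Among the chloride cotransporters, Slc12a7 rose and the other 3 tested members did not pass. Slc12a7 encodes KCC4, which lets potassium and chloride leave the cell together and helps it shed volume (gene ID 20499, chromosome 13). On its brighter probe set, control pools 1 to 5 read 120.4, 114.3, 122.1, 126.2 and 111.3, and SCARKO pools 1 to 5 read 155.2, 143.1, 143.5, 161.3 and 141.6. The groups did not overlap, and the SCARKO pool was higher by 0.23 to 0.37 on the log2 scale in each pair. Means were 118.9 ± 6.01 in controls and 148.9 ± 8.80 in SCARKO (SD, n = 5). The rise was 0.32 on the log2 scale (SE 0.06, limma adjusted p = 0.0070), or 1.25-fold. The call was kept under every alternative with groups from the titles, with adjusted p between 0.0058 and 0.047.

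The dimmer Slc12a7 probe set read 56.9, 57.4, 50, 48.6 and 60.2 in control pools 1 to 5 and 73.6, 59.5, 59.2, 73.1 and 72.5 in SCARKO pools 1 to 5. It was higher in 5 of 5 pairs, by little in pair 2, and the fitted difference was 0.30 (log2, SE 0.09, adjusted p = 0.073). It did not pass with all pairs and passed without pair 2 (0.37, adjusted p = 0.046).

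Slc12a2 encodes NKCC1, the inward sodium-potassium-chloride cotransporter, which spermatogenesis is known to need. Its brightest probe set averaged 210.1 in control pools (185.6 to 225.5) and 203.4 in SCARKO pools (192.9 to 219.4; log2 fold change -0.05, SE 0.05, adjusted p = 0.66), and its 2 other probe sets gave -0.10 and 0.10. Slc12a4, which encodes the related exporter KCC1, averaged 60.7 and 61.4 (log2 fold change 0.02, SE 0.09). Slc12a9, a relative without a settled transport role, had a log2 fold change of 0.03 (SE 0.12). The kidney salt cotransporter genes Slc12a1 and Slc12a3 and the neuronal exporter gene Slc12a5 lay below the filter, with control means of 16.8 or less.

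The kinases that switch Slc12 carriers on and off were counted beside them, together with genes of their regulators and partners. Of 11 such genes on the array 10 were tested, among them Cab39, Cab39l, Klhl2, Cul3 and Nedd4l, which do not encode kinases. WNK kinases act through the kinases SPAK (Stk39) and OSR1 (Oxsr1), which activate sodium-driven Slc12 carriers and inhibit the KCC exporters. Limma called 2 of the 10 lower, Wnk4 and Sgk1, and 0 higher, against 3.52% lower and 2.17% higher among all genes. The list median was -0.08. Wnk4 read 32.2, 27.9, 41.1, 36.5 and 33.3 in control pools 1 to 5 and 13.4, 24.2, 24.7, 25.4 and 20.9 in SCARKO pools 1 to 5. All SCARKO pools were below all controls, and limma called Wnk4 at -0.68 (log2, SE 0.14, adjusted p = 0.020). The call was lost without pair 1, 3 or 5 (adjusted p = 0.061 to 0.079), without the intensity trend (0.051) and with dim probe sets kept (0.15).

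Sgk1, a kinase induced by steroid hormones that acts upstream of several ion carriers, read 90.4, 115.3, 137.1, 123.0 and 136.7 in control pools 1 to 5. In SCARKO pools 1 to 5 it read 94.7, 87.9, 86.2, 94.4 and 78.3, lower in every pair except pair 1, whose control was the lowest. Limma called Sgk1 at -0.44 (log2, SE 0.11, adjusted p = 0.039). This call was lost without pair 2, 3, 4 or 5 (adjusted p = 0.064 to 0.15), without the intensity trend (0.11) and with dim probe sets kept (0.22). Log2 fold changes of the other kinase genes that link WNKs to the carriers were -0.06 for Wnk1, -0.22 for Stk39 (adjusted p = 0.18) and 0.03 for Oxsr1. Neither change was shown to be tied to that of Slc12a7.

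Zinc carriers made up 17 of the 35 tested genes, 8 of the Slc30 family and 9 of the Slc39 importer family. Limma called 0 of them, with 4 at an unadjusted p under 0.05 (21.7% of all genes were), and 12 of 17 had a negative log2 fold change (median -0.05). The smallest p belonged to Slc30a4, which loads zinc into vesicles and is the gene mutated in lethal milk mice. Control pools 1 to 5 read 195.6, 223.1, 236.8, 214.6 and 191.8, and SCARKO pools 1 to 5 read 182.5, 175.3, 189.4, 195.9 and 175.7. It was lower in 5 of 5 pairs with slight overlap between the groups, and the fitted difference was -0.21 (log2, SE 0.06, adjusted p = 0.065). When probe sets were averaged by gene, which leaves fewer tests, it passed at an adjusted p of 0.041.

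Slc30a2, a vesicular zinc carrier known from milk secretion, was next among the Slc30 genes. Its control pools 1 to 5 read 137.0, 115.4, 126.4, 148.2 and 151.9 and its SCARKO pools 1 to 5 read 130.1, 121.2, 110.9, 116.1 and 114.8. It was lower in every pair but pair 2, at -0.19 on the log2 scale (SE 0.08, adjusted p = 0.18). Slc30a9, a zinc carrier of mitochondria, averaged 219.7 ± 16.6 in controls and 200.3 ± 4.98 in SCARKO (SD, n = 5), a log2 difference of -0.13 (adjusted p = 0.23). The remaining Slc30 genes lay between -0.04 for Slc30a7 and 0.26 for the synaptic vesicle carrier Slc30a3 (adjusted p = 0.28). Slc30a1, the zinc exporter of the plasma membrane and a known target of Mtf1, had a log2 fold change of -0.02 (SE 0.10).

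The importers spread to both sides of 0. Slc39a8, which brings zinc, manganese and iron into cells, read 32.6, 49.8, 44.4, 60.4 and 49.9 in control pools 1 to 5 and 43.4, 42.9, 75.0, 72.1 and 60.5 in SCARKO pools 1 to 5. It was higher in every pair except pair 2, and it varied among control pools by a CV of 21.3%. Its difference of 0.30 (log2, SE 0.12, adjusted p = 0.18) did not pass. It passed without pair 2, the pair that pointed the other way (0.43, adjusted p = 0.046). It did not pass without pair 1, 3, 4 or 5 (adjusted p = 0.28 to 0.49) or without the block (0.48). Its other probe set gave 0.11.

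Slc39a6 encodes ZIP6, a plasma membrane zinc importer. Its brightest probe set read 594.8, 559.1, 584.2, 586.5 and 578.0 in control pools 1 to 5 and 544.0, 615.1, 517.2, 492.7 and 530.2 in SCARKO pools 1 to 5. SCARKO pool 2 was the highest of all 10 and the other 4 SCARKO pools were below every control, and the fitted difference was -0.11 (log2, SE 0.05, adjusted p = 0.28). The other probe set gave -0.14 (adjusted p = 0.21), also with pair 2 alone pointing up. The remaining importers had log2 fold changes between -0.17 for Slc39a13 and 0.09 for Slc39a3, and none passed. Among them was Slc39a7, which releases zinc from the endoplasmic reticulum (-0.05, SE 0.05). The intestinal importer gene Slc39a4 lay below the filter.

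Metallothioneins and other metal handlers were counted beside the zinc carriers, with 10 of 12 tested. Limma called 1 lower and 0 higher, against 3.52% lower and 2.17% higher among all genes. The member that fell was Mt3, a metallothionein best known from brain, at 124.3, 79.4, 127.3, 92.8 and 93.3 in control pools 1 to 5. SCARKO pools 1 to 5 read 89.7, 67.8, 79.2, 77.3 and 82.9, lower in all 5 pairs with overlapping groups (log2 fold change -0.36, SE 0.08, limma adjusted p = 0.029). The call was lost without pair 1, 3 or 4 (adjusted p = 0.055 to 0.12), without the block (0.16), without the intensity trend (0.076) and with dim probe sets kept (0.15). Mt1 and Mt2, the zinc-induced metallothioneins found in most cells, had log2 fold changes of -0.16 (adjusted p = 0.26) and -0.01 (0.97), and Mtf1 had -0.07 (0.62).

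No bicarbonate carrier or proton exchanger adaptor passed. Slc4a2 encodes AE2, a chloride-bicarbonate exchanger whose loss is known to stop sperm development. Its control pools 1 to 5 read 181.2, 149.2, 192.4, 162.2 and 154.5, and its SCARKO pools 1 to 5 read 144.5, 152.9, 151.1, 152.9 and 151.1. Controls spread widely and SCARKO pools hardly at all, with SDs of 18.3 and 3.47, and the log2 fold change was -0.15 (SE 0.07, adjusted p = 0.24). Slc4a3, the related exchanger AE3, had -0.01 (SE 0.09). Slc4a1ap encodes kanadaptin, named for binding the red cell exchanger and not itself a carrier, and had 0.13 (SE 0.07, adjusted p = 0.30). The red cell exchanger gene Slc4a1 lay below the filter on all 3 of its probe sets.

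The Slc9 genes above the filter were both scaffolds rather than exchangers. Slc9a3r1 and Slc9a3r2 encode NHERF1 and NHERF2, which hold sodium-proton exchangers and other membrane proteins at the cell surface. Slc9a3r1 averaged 76.4 ± 4.14 in controls and 79.4 ± 6.09 in SCARKO (SD, n = 5; log2 fold change 0.05, SE 0.07, adjusted p = 0.70). Slc9a3r2 had -0.10 (SE 0.14, adjusted p = 0.75), with 5 probe sets above the filter between -0.10 and 0.05. The exchanger Slc9a8 lay below the filter, at control means of 9.42 and 9.98 on its 2 probe sets.

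Both phosphate carriers, which also serve as retrovirus receptors, were measured well above the filter and did not pass. Slc20a2 read 127.0, 109.1, 143.3, 123.8 and 114.8 in control pools 1 to 5 and 117.7, 97.2, 114.5, 110.8 and 114.3 in SCARKO pools 1 to 5. It was lower in 5 of 5 pairs, barely so in pair 5, at -0.15 on the log2 scale (SE 0.06, adjusted p = 0.20). Its other probe set gave -0.16 (adjusted p = 0.50) with 3 of 5 pairs lower. Slc20a1 averaged 216.9 ± 19.4 in controls and 210.5 ± 13.6 in SCARKO (SD, n = 5; log2 fold change -0.04, SE 0.05, adjusted p = 0.69).

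Of 29 organic ion carriers, 4 reached the filter and none passed. Slc22a17, a receptor for the siderophore-binding protein lipocalin 2, read 139.4, 109.1, 126.6, 95.5 and 108.3 in control pools 1 to 5 and 131.1, 115.4, 124.3, 142.4 and 140.0 in SCARKO pools 1 to 5. The higher SCARKO mean came mainly from pairs 4 and 5, and the log2 fold change was 0.18 (SE 0.09, adjusted p = 0.29). Slc22a5, the carnitine carrier OCTN2, averaged 97.5 ± 19.5 and 98.9 ± 9.74 (SD, n = 5; log2 fold change 0.04, SE 0.08), and the related carnitine carrier Slc22a21 had -0.17 (SE 0.11, adjusted p = 0.42). Slco3a1, a carrier of prostaglandins and thyroid hormone, had -0.07 (SE 0.10, adjusted p = 0.73), and all 3 of its probe sets were negative. Limma called 0 of 7 tested genes of mitochondrial carnitine use and 0 of 3 organic ion efflux pumps, with 0 and 2 at an unadjusted p under 0.05, a level that 21.7% of all genes reached. Closest to the threshold in these lists were Crot, which makes medium-chain acylcarnitines in peroxisomes (log2 fold change 0.15, adjusted p = 0.24), and the efflux pump gene Abcc1 (-0.14, adjusted p = 0.12).

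The ion pumps and channels that work with these carriers gave no call. Limma called 0 of 7 sodium pump genes, 0 of 3 calcium pumps, 0 of 17 vacuolar proton pump genes and 0 of 11 chloride channel genes, with 1, 0, 2 and 1 at an unadjusted p under 0.05 (21.7% of all genes). List medians were 0.03, -0.00, -0.03 and -0.09. The members with the smallest p were Atp1b1, a sodium pump subunit (-0.14, adjusted p = 0.090), Atp2a3, a calcium pump (-0.08, 0.69), Atp6v0e of the proton pump (-0.20, 0.074) and the chloride channel gene Ttyh1 (-0.14, 0.18). Among partners of the Slc9 exchangers it was Msn, which encodes moesin (0.15, adjusted p = 0.14), and 0 of the 6 tested were called, with 1 at an unadjusted p under 0.05. None of the 15 carbonic anhydrases on the array, which supply bicarbonate to the Slc4 carriers, reached the filter. Over all these lists, leaving out the Slc genes described here, 3 of 72 tested genes were called (4.17%), all lower, against 5.69% of all genes.

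The genes below the filter gave no call either. Over the 39 genes, the brightest probe set of each had a control mean of at most 16.8, with a median of 3.78. All 3 sodium-calcium exchanger genes, Slc8a1, Slc8a2 and Slc8a3, were among them, as were the kidney organic anion carriers Slc22a6 and Slc22a8 and the liver carrier Slco1b2. Tested with all dim probe sets kept, 0 of the 69 dim transporter probe sets passed. Of all 9050 dim probe sets 0 passed in that fit, so this count says nothing particular about the transporters. An unadjusted p under 0.05 was found for 4 of the 69 (5.80%), against 6.07% of all 9050 dim probe sets. Groups did not overlap for 2 of the 69 (2.9%), Slc4a5 and Slc22a4, against 0.895% of all dim probe sets.

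Slc4a5, an electrogenic sodium bicarbonate cotransporter, averaged 16.8 ± 1.61 in controls and 10.8 ± 2.80 in SCARKO (SD, n = 5), with controls from 15.2 to 18.8 and SCARKO pools from 7.6 to 13.3. Slc22a4, a carrier of the antioxidant ergothioneine, averaged 6.52 ± 2.07 and 3.10 ± 1.06, with controls from 4.4 to 9.2 and SCARKO pools from 1.9 to 4.3. Both were lower in 5 of 5 pairs, at log2 values of -0.68 (limma adjusted p = 0.16) and -1.09 (0.19) in that fit. At such signals a level cannot be told from background here, since detection calls were not used. Both were named after their values were seen.

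**Figure D3:**
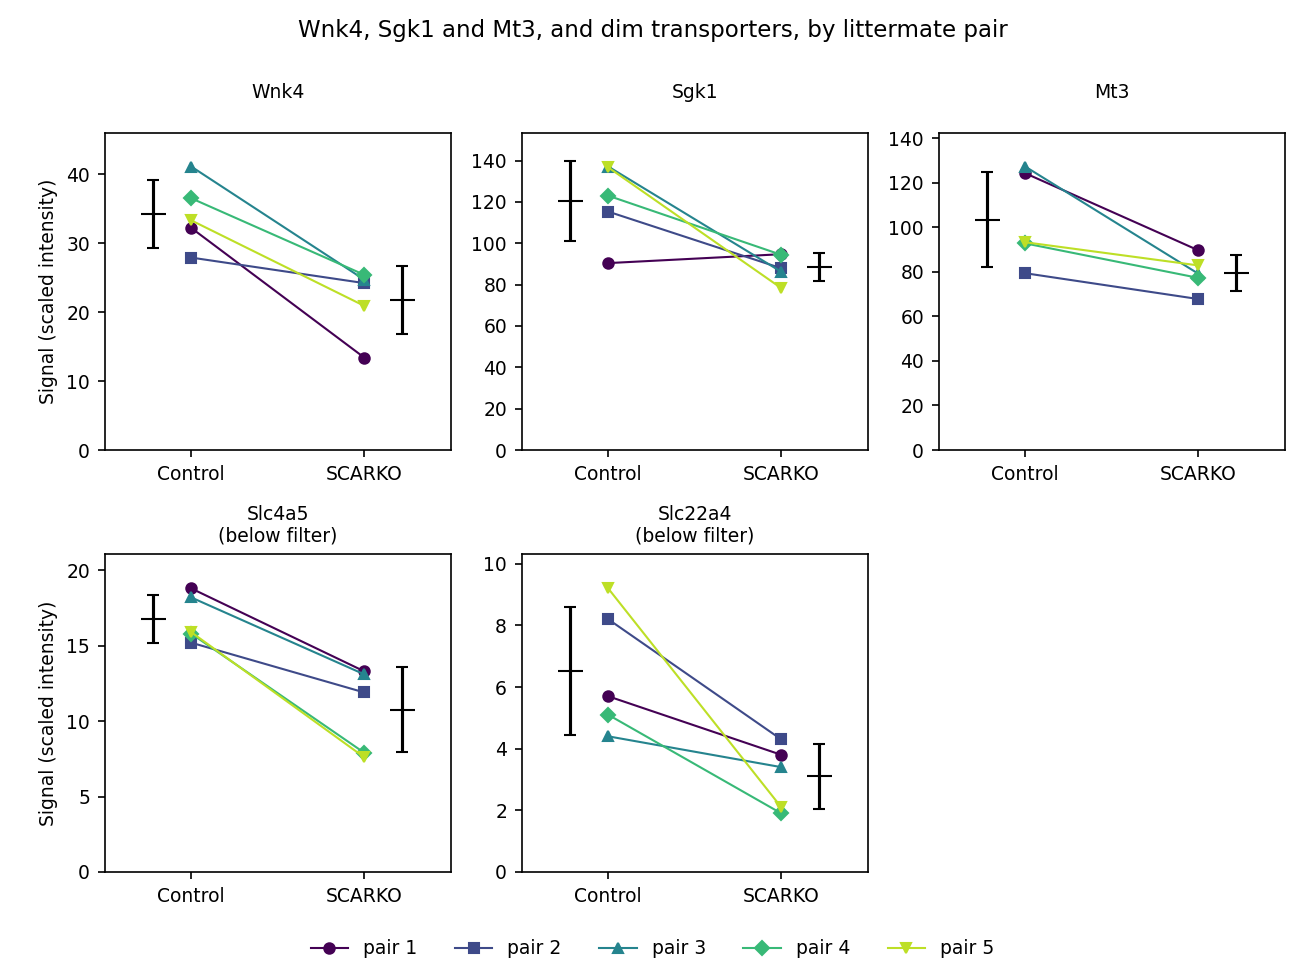
Signal (scaled intensity, y axis from 0) in control and SCARKO pools for Wnk4, Sgk1 and Mt3, and for Slc4a5 and Slc22a4, which lay below the signal filter. Lines join littermate pools and black bars give the mean ± SD (n = 5). SCARKO pools lie under all control pools for Wnk4, Slc4a5 and Slc22a4, and Sgk1 is not lower in pair 1.

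The pairs were not alike. In pair 2, 25 of the 35 transporter genes were higher in SCARKO, against 11, 11, 16 and 12 in pairs 1, 3, 4 and 5. In pair 2 the sign was that of the mean of the other pairs for 14 of 35 genes (40%), against 22 to 25 genes in each other pair. Among all genes this share was 58.2% for pair 2 and between 61.0% and 67.0% for the others. For pair 5, on which both labels agree, it was 25 of 35 transporter genes (71.4%) and 65.7% of all genes. A fit without pair 5 called 344 probe sets, and 327 of these (95.1%) differed the same way within that pair. Slc41a2 and Slc12a7 kept their direction in pair 2 (-0.46 and 0.32 on the log2 scale).

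**Figure D4:**
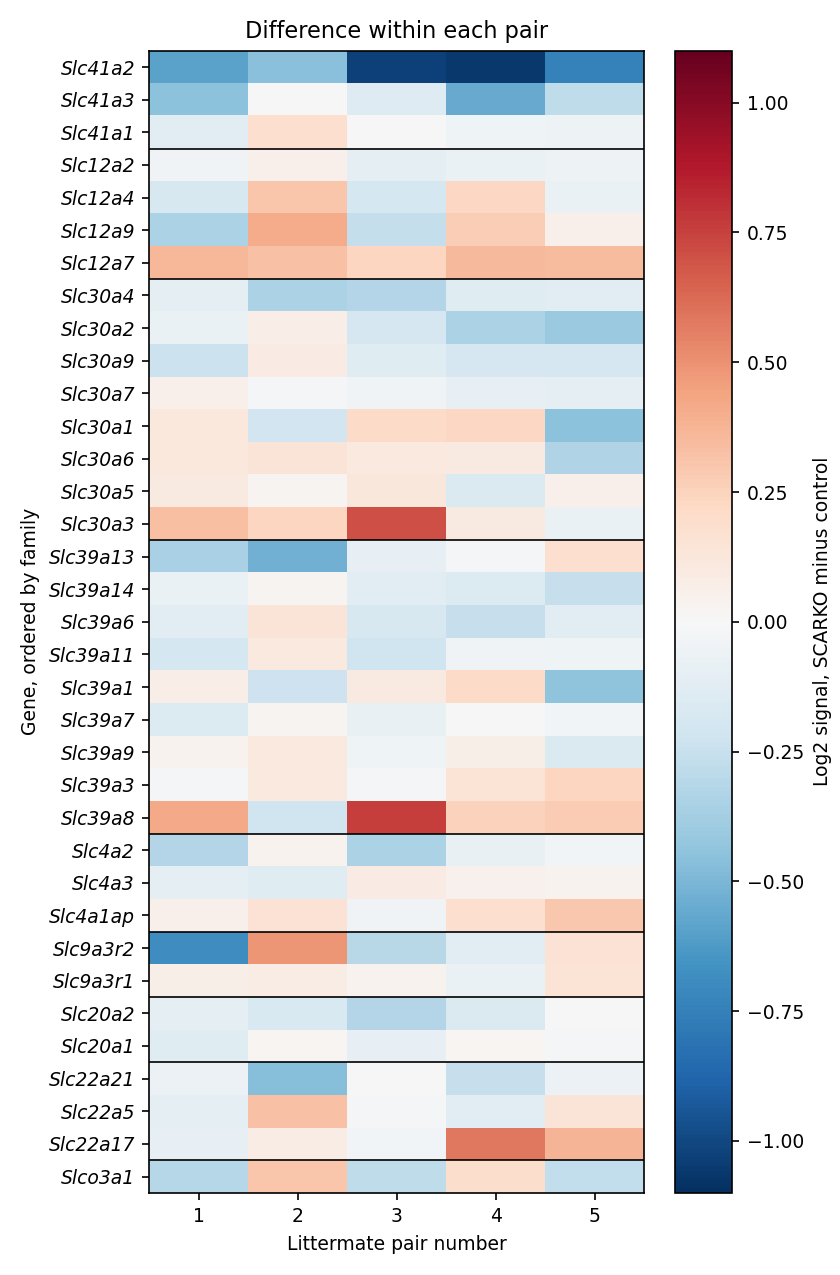
Log2 signal in SCARKO minus control within each littermate pair (columns 1 to 5) for the 35 tested transporter genes (rows, ordered by family), with blue for lower and red for higher in SCARKO. The rows of Slc41a2 and Slc12a7 keep 1 colour across all pairs, and column 2 holds 25 genes higher in SCARKO.

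In all 5 pairs, 4 of the 35 genes (11.4%) had 1 direction, Slc41a2, Slc12a7, Slc30a4 and Slc20a2, against 19.7% of all genes. Groups did not overlap for 2 of 35 (5.71%), against 5.26% of all genes. Within control pools the CV of the 35 genes ran from 2.31% for Slc39a6 to 25.4% for Slc41a2, with a median of 9.43%, and in SCARKO pools the median was 8.54%. Of the 11 genes with more than 1 probe set above the filter, 6 had the same sign on all of them, Slc12a7 and Slc41a3 included, and 5 did not.

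Whole testis was measured, so fewer cells of a type and less RNA per cell cannot be told apart. Of 15 Sertoli markers, 4 fell and 3 rose (46.7% called), against 5.69% called among all genes. Their summed signal was 6711 to 7307 in control pools and 6482 to 6799 in SCARKO pools. Within that sum Clu alone averaged 2580 in controls and 2498 in SCARKO. Of 10 germ cell markers 2 fell and 0 rose (20% called), with sums of 3928 to 4885 and 3997 to 4589. These sums pool both directions. Log2 fold changes were negative for 4, Sycp3, Sycp1, Stag3 and Hspa2 (-0.42 to -0.21), and positive for 6 (0.02 to 0.20). Limma called 0 of 5 Leydig, 0 of 7 myoid, 0 of 8 macrophage and 0 of 6 endothelial markers, with 1, 2, 2 and 1 at an unadjusted p under 0.05, against 21.7% of all genes. The summed signal of myoid markers was 2880 to 3263 in controls and 2547 to 2972 in SCARKO, which overlap. Acta2 alone averaged 1532 in controls and 1483 in SCARKO within it. Sums of the Leydig, macrophage and endothelial markers overlapped between the groups as well. The part of these markers in the changes of Slc41a2, Slc41a3 and Slc12a7 was not tested.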

How the data were processed

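The deposited values were probe set intensities from the authors on a linear scale, which had the same trimmed mean (2% off each end) of 100.0 on all 10 arrays. MAS5 was named for 8 arrays in the submitters' processing notes, without a version, and no tool was named for the 2 arrays of pair 5. Precision was limited by the number of arrays, since intensities carry no read depth. Probe sets were named from GEO's platform annotation, with symbols brought up to date by gene ID (GRCm38.p6), which changed no transporter symbol. Another 2 probe sets that named such a gene beside another gene were left out.

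Signals below 1 were raised to 1 before log2. The dimmest 40% of probe sets by mean log2 signal were dropped, which left 13576. Limma 3.58.1 in R 4.3.3 was fitted to these with pair as a blocking term and a variance trend on intensity. Tests were two-sided, with p-values adjusted over all fitted probe sets by the Benjamini-Hochberg method. The fit was tested on simulated data. Pair numbers are those of the titles, and per the labels' protocols pools of littermates were made as control and SCARKO pairs. Deviations of same-numbered pools from their group means correlated at 0.27, 0.19, 0.19, 0.11 and 0.39 for pairs 1 to 5.

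Named genes were the called ones, the 2 with the smallest p in each family, and in each companion list the called members and the one with the smallest p. Others were added after their values were seen to complete each family or list. The genes and lists were chosen with earlier results of these data known. The alternatives were no block, other filters, 16 added before log2, quantile normalization, no trend, each pair left out, groups from the descriptions and gene means.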

Additional observations from a re-analysis of the deposited data

Results flagged for a closer look

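A pool stood far from the other 4 of its group for 5 of 84 groups of 5 pools examined (42 probe sets of the named genes, 2 groups each). Chance alone flags about 1 in 20, which is close to this number. Control pool 2 read 72.2 on the brighter Slc41a3 probe set, against 93.1 to 101.0 in the other controls. Control pool 1 read 18.5 on the dimmer Slc39a8 probe set, against 27.0 to 28.1. Control pool 5 read 24.0 for Slc22a21, against 30.7 to 32.3, and 315.4 for Ttyh1, against 275.1 to 281.6. SCARKO pool 1 read 144.5 for Slc4a2, against 151.1 to 152.9 in the other SCARKO pools. The causes were not tested.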

How the results depend on the processing

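The number of called probe sets was 704, and 404 without the replicate block, 38 with dim probe sets kept, 321 without the intensity trend, 0 with groups from the descriptions, and 304 to 743 when 1 pair was left out. The count of transporter genes called lower was 1, and 0 with dim probe sets kept, 0 with the lowest 60% left out (Slc41a2 was then not tested), 0 with groups from the descriptions, 3 with gene means (Slc41a2, Slc41a3 and Slc30a4) and 1 to 2 when 1 pair was left out. The count called higher was 1, 0 with groups from the descriptions and 1 to 2 with 1 pair left out. Without pair 2, Slc41a3 and Slc39a8 joined the calls. With groups from the descriptions, log2 fold changes turned to 0.48 for Slc41a2, 0.19 for Slc41a3, -0.19 for Slc12a7, 0.41 for Wnk4, 0.11 for Sgk1 and 0.30 for Mt3, none called (adjusted p of 0.90 to 0.93). The replicate block decided the calls of the dimmer Slc41a3 probe set and of Mt3, and of no other named gene. Causes beyond the number of probe sets or pairs used were not tested. Signals near the filter limit what can be said of Slc41a2 and Wnk4.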
